A study of Mus musculus with 2 samples.

Results

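The miR-188/miR-362/miR-532/miR-660 cluster is a group of miRNA hairpins on the mouse X chromosome, and its mature miRNAs were examined here in exosomes, the small vesicles that cells release into their medium. The members were selected by name, as 9 listed mature miRNAs of this cluster, and the list was drawn up with earlier values of these arrays known, so every value below is a description. Of the 9 members, 8 were on the array, among 1881 miRNAs in all, and mmu-miR-660-5p was not among the array's names. The cells were purchased bone marrow stromal stem cells (BMSCs) of C57BL/6 mice, and exosomes were taken from medium with exosome-depleted serum after 72 h. The normoxic culture and the hypoxic culture, kept at 0.2% oxygen, had no other treatment or genetic change named. Each condition had 1 array of a 1-colour Agilent miRNA design, so there was no biological replicate and no test could be run.

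A miRNA cluster is a group of hairpins made within the same long transcript. Drosha cuts the hairpins out, Dicer trims each to a duplex, and usually one arm of the duplex (5p or 3p) is kept in an Argonaute protein while the other is lost. Bases 2 to 8 of the kept arm, the seed, carry most of the pairing to target mRNAs. The hairpins of this cluster lie in Clcn5, the gene of an endosomal chloride-proton exchanger, and miR-188-5p is known in BMSCs as a regulator of the choice between bone-forming and fat-storing cells.

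In RefSeq (GRCm38.p6) the 5 hairpins of the cluster with an entry lie inside the Clcn5 gene span on the minus strand, over 10815 bases of chromosome X. In the order of transcription they are Mir532, Mir188, Mir362, Mir501 and Mir500. Mir532 and Mir188 are 345 bases apart, Mir188 and Mir362 are 5942 apart, Mir362 and Mir501 are 630 apart, and Mir501 and Mir500 are 3468 apart. The sequences shown are the detected members with an entry and mmu-miR-501-3p, a near copy of one of them. They are from RefSeq (GRCm38.p6, minus strand), 5′ to 3′, with the seed in capitals.
mmu-miR-188-5p, chrX:7248031-7248051: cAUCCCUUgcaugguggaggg
mmu-miR-362-3p, chrX:7241984-7242005: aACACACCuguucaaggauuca
mmu-miR-500-3p, chrX:7237695-7237716: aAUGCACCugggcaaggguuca
mmu-miR-501-3p, chrX:7241270-7241291: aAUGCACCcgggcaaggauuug

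mmu-miR-500-3p and mmu-miR-501-3p shared their seed and 18 of 22 positions. Counted from 1 at the 5′ end, with the base of mmu-miR-500-3p first, the differences were U9C, G18A, C21U and A22G. Shared seeds could be searched only among the 1608 of 1881 array names with a mature sequence, and mmu-miR-532-5p had none. Within that set, the seed of mmu-miR-362-3p was shared with mmu-miR-329-3p, and that of mmu-miR-188-5p with mmu-miR-7061-3p. Both of these lie outside the cluster and were not detected on either array.

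Signals are Agilent's processed intensities in arbitrary units, after background subtraction and, unless stated, before normalization. Detection of a probe required that the scanner software put over 50% of its spots well above background, and detection of a miRNA required 1 such probe. The share of miRNA spots well above background was 9.96% in normoxia and 8.59% in hypoxia. Repeat spots of a probe had a median coefficient of variation of 9.68% and 15.8%, so the hypoxia array was the noisier one. Of 5 miRNAs associated with mesenchymal cells, all but miR-145a-5p were detected on both arrays. Of 4 blood-cell miRNAs on the array, 3 were detected in normoxia and 1 in hypoxia. Fewer of all miRNAs were detected in hypoxia as well, so these counts alone do not show a loss of blood-cell miRNAs. miR-144-3p and miR-223-3p were detected in normoxia only and have no log2 difference. miR-451a, detected on both arrays with 1 of its 2 probes, had a log2 difference of −3.66 (hypoxia minus normoxia). This was among the lowest differences of all miRNAs detected on both arrays. The part of miR-451a in the values below was not tested. More vesicles and more miRNA per vesicle cannot be told apart in such RNA.

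The first question was which members the exosomes carried. Both arrays detected the same 4 of the 8 members, mmu-miR-532-5p, mmu-miR-188-5p, mmu-miR-362-3p and mmu-miR-500-3p, while 9.57% of all miRNAs were detected on both arrays. All 112 spots of these 4 in normoxia and all 117 in hypoxia were well above background. The other 4 members were dim on both arrays. Among spots without an outlier flag, to which all spot counts refer, mmu-miR-532-3p, mmu-miR-362-5p and mmu-miR-501-5p had 0 well above background, and mmu-miR-501-3p had 0 of 28 in normoxia and 1 of 30 in hypoxia. The means of the 16 probes of these members lay between −4.17 and 8.58 in normoxia and between −4.88 and 10.3 in hypoxia. The dimmest detected probe read 14.5 in normoxia and 13.5 in hypoxia, so these members have no fold here.

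Each hairpin with a signal gave it from a single arm. The arms were 5p for Mir532 and Mir188, and 3p for Mir362 and Mir500, and neither arm of Mir501 was detected. The partner arms outside the list, mmu-miR-188-3p and mmu-miR-500-5p, had 0 such spots well above background on both arrays. One outlier-flagged hypoxia spot of mmu-miR-188-3p, left out here, read 418 and was well above background. The undetected 5p arms of Mir362 and Mir500 shared a seed, and are shown for that reason (RefSeq, GRCm38.p6, minus strand, 5′ to 3′, seed in capitals).
mmu-miR-362-5p, chrX:7242019-7242042: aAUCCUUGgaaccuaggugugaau
mmu-miR-500-5p, chrX:7237730-7237754: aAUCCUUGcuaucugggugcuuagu

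Signals from a single arm were usual on these arrays. Of 158 hairpins with both arms on the array and an arm detected on either array, 142 (89.9%) gave a signal from 1 arm, beside 4 of 4 in the cluster.

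**Figure D1:**
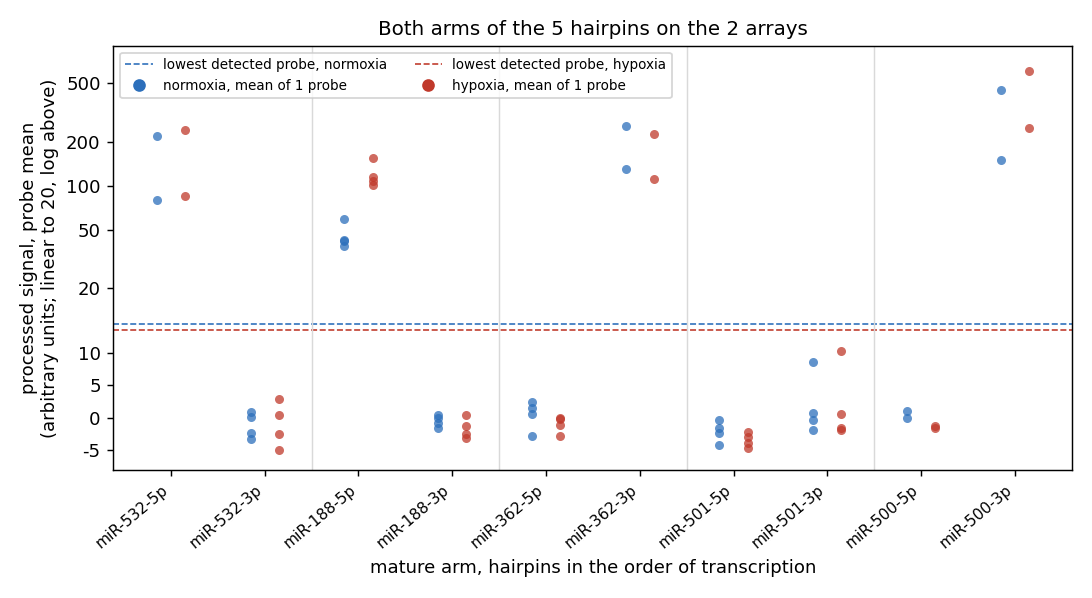
Mean processed signal of each probe (arbitrary units, linear to 20 and logarithmic above) for both arms of the 5 hairpins, in the order of transcription, on the normoxia array (blue) and the hypoxia array (red). Dashed lines mark the dimmest detected probe of each array (14.5 and 13.5). The probes of miR-532-5p, miR-188-5p, miR-362-3p and miR-500-3p lie above the lines and all others below them.

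The next question was whether the exosomal signal of the 4 detected members differed between the conditions. After quantile normalization, which the study names, the log2 difference was 1.88 for mmu-miR-188-5p, 0.89 for mmu-miR-500-3p, 0.51 for mmu-miR-532-5p and 0.17 for mmu-miR-362-3p. Of the 4 members 1 was at least 2-fold higher in hypoxic exosomes, where 18.3% of the 180 miRNAs detected on both arrays were. Of the 4 members 0 were at least 2-fold lower, where 10.0% of the 180 were. The median log2 difference was 0.70 over the 4 members and 0.17 over the 180. The members lay at ranks 11, 35, 64 and 91 from the highest of the 180 differences. mmu-miR-362-3p was thus at the median of all, and the other 3 lay above it.

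**Figure D2:**
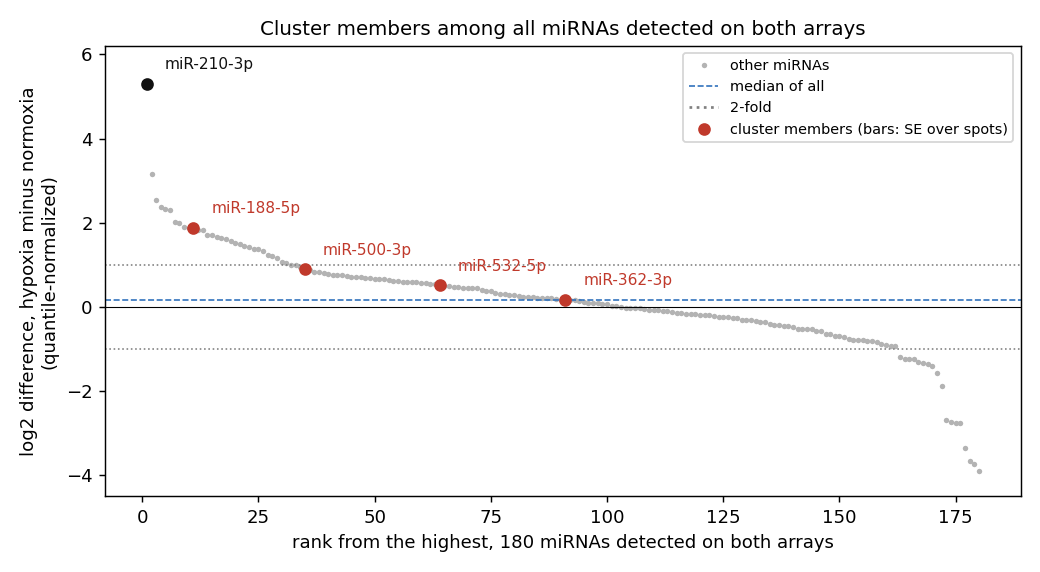
Normalized log2 difference (hypoxia minus normoxia) of the 180 miRNAs detected on both arrays, ranked from the highest. Red points are the 4 cluster members and the black point is miR-210-3p, with bars for the SE over spots, which are smaller than the points. miR-188-5p lies at rank 11 and above the 2-fold line, and miR-362-3p lies on the median of all (0.17).

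miR-188-5p was brighter in hypoxia on each of its 4 probes. For probe A_54_P2361 the normoxic spots averaged 38.5 ± 1.54 (SD, n = 5, from 36.6 to 40.2) and the hypoxic spots 101 ± 9.92 (SD, n = 8, from 91.8 to 121). For probe A_54_P2362 the averages were 41.9 ± 3.51 (SD, n = 6, from 38.0 to 48.0) and 107 ± 12.1 (SD, n = 7, from 88.7 to 123). These spots were far apart, and those of the other probes were too. Probe A_54_P2363 gave 42.3 ± 1.64 against 114 ± 9.18 (SD, n = 7 each), with its brightest normoxic spot at 44.2 and its dimmest hypoxic spot at 98.1. Probe A_54_P2364 gave 58.8 ± 6.61 against 153 ± 17.4 (SD, n = 7 each), with its brightest normoxic spot at 67.2 and its dimmest hypoxic spot at 129.9. The spots of the arrays did not overlap on any of the 4 probes. Hypoxia over normoxia was 2.56-fold to 2.71-fold before normalization. Normalized log2 differences ran from 1.81 to 1.93 over the probes, with a mean of 1.88 ± 0.035 (SE over spots), or 3.68-fold.

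miR-500-3p was brighter in hypoxia on both of its probes, by unequal amounts. For probe A_54_P2945 the normoxic spots averaged 150.3 ± 16.5 (SD, n = 14) and the hypoxic spots 248 ± 33.5 (SD, n = 15). Probe A_54_P4410 gave 452 ± 13.0 against 606 ± 36.0 (SD, n = 15 each). The spots of the arrays did not overlap, with normoxia up to 174 and hypoxia from 189 on the first probe, and up to 477 and from 564 on the second. The normalized log2 differences were 1.09 ± 0.066 and 0.70 ± 0.025 (SE over spots). The first probe thus passed 2-fold and the second did not, and they differed by more than their spot error. Their mean was 0.89 ± 0.035 (SE over spots), or 1.86-fold. The near copy miR-501-3p has probes of its own, which stayed below the detected range. Whether the probes of one also bind the other was not tested, so the value is uncertain as a measurement of miR-500-3p alone.

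miR-532-5p, encoded next to miR-188-5p, differed little before normalization. Probe A_54_P2783 gave 217 ± 12.8 in normoxia (SD, n = 13) against 239 ± 25.4 in hypoxia (SD, n = 14). Probe A_54_P2782 gave 79.1 ± 5.33 against 84.8 ± 26.1 (SD, n = 15 each). The spots of the arrays overlapped on both probes. On A_54_P2782 the 2 lowest hypoxic spots, both at 29.0, stood apart from the next at 69.2, and the coefficient of variation was 6.73% in normoxia and 30.8% in hypoxia. After normalization the probes gave 0.59 and 0.44, with a mean log2 difference of 0.51 ± 0.063 (SE over spots), or 1.43-fold.

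miR-362-3p was dimmer in hypoxia before normalization and brighter after it. Probe A_54_P2675 gave 130.5 ± 18.5 against 110.3 ± 18.6 (SD, n = 15 each). Probe A_54_P2676 gave 255 ± 27.1 in normoxia (SD, n = 15) against 227 ± 30.5 in hypoxia (SD, n = 14). The spots of the arrays overlapped on both probes. After normalization the probes gave 0.26 and 0.07, with a mean log2 difference of 0.17 ± 0.052 (SE over spots), and without normalization the mean was −0.20. Its direction thus depended on the scaling.

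**Figure D3:**
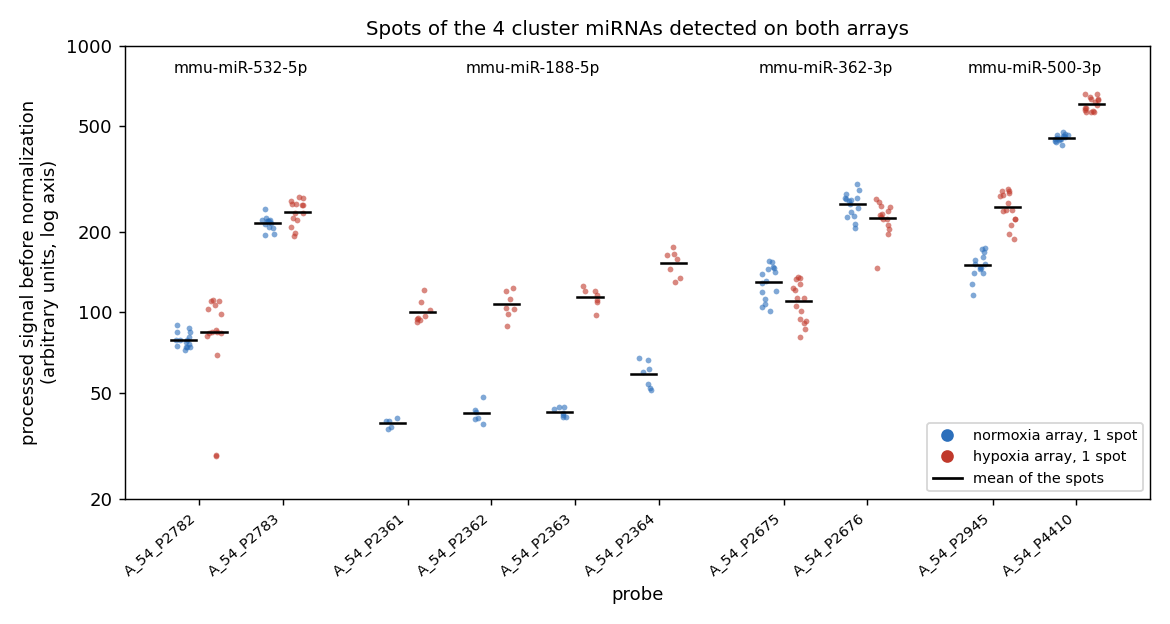
Processed signal of every spot without an outlier flag (arbitrary units, log axis, before normalization) on the 10 probes of the 4 detected members, normoxia in blue and hypoxia in red, with black lines for the mean. The spots of the arrays are apart on all probes of miR-188-5p and miR-500-3p and overlap on those of miR-532-5p and miR-362-3p.

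The members of the cluster therefore differed unequally between the arrays. The gap between the log2 differences of a pair of members does not depend on any single factor that scales an array. With such scaling, the log2 difference of miR-188-5p exceeded that of miR-362-3p by 1.60 ± 0.063 (SE over spots), that of miR-532-5p by 1.27 ± 0.072 and that of miR-500-3p by 0.82 ± 0.049. In ratios these were 3.02, 2.41 and 1.76. The log2 difference of miR-500-3p exceeded that of miR-362-3p by 0.78 ± 0.063 and that of miR-532-5p by 0.45 ± 0.072 (SE over spots). For miR-532-5p and miR-362-3p the gap was 0.33 ± 0.082 (SE over spots). Each gap was larger than its SE over spots, and the spread between cultures was not measured. The SE over spots also leaves out disagreement between the probes of a member. The probes of miR-500-3p gave log2 differences of 0.72 and 0.42 before normalization. With normexp background correction in place of the processed signal, miR-188-5p exceeded miR-362-3p by 0.90, miR-532-5p by 0.65 and miR-500-3p by 0.27. That setting adds an offset of 50 to every spot, which shrinks the ratios of dim probes most. In normoxia the probe means of miR-188-5p were only 38.5 to 58.8 in the processed signal. How much of the smaller gaps is due to the offset was not tested. The hairpins of miR-532-5p and miR-188-5p lie 345 bases apart, and their ratios of hypoxia to normoxia were 2.41-fold apart with single-factor scaling and 1.57-fold apart with normexp. The gap between miR-500-3p and miR-532-5p fell to 0.26 with the brightest probe of each and to 0.20 with the software's summed signal.

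Scaling by a single factor moved the members together. Quantile normalization moved them by unequal amounts. With it, the log2 difference of miR-188-5p exceeded that of miR-362-3p by 1.71, against 1.60 with a single factor. Under the 13 settings tried, the one used here included, the log2 differences had the order miR-188-5p, miR-500-3p, miR-532-5p, miR-362-3p. This order could not differ among the 5 scalings by a single factor, and 3 other settings left the members' values as they were. miR-188-5p was at least 2-fold higher in 13 of 13, from a log2 difference of 1.02 with normexp background correction to 2.32 with the 75th percentile of all probes as the scale. miR-500-3p passed 2-fold in 2 of the settings and miR-532-5p in 1. miR-362-3p was above 0 in 11 and below 0 in 2. The median of all miRNAs itself moved from −0.27 to 0.66 over 6 scalings. Relative to that median, the log2 difference of miR-188-5p was 1.71 with quantile normalization and 1.66 with each of the 5 scalings by a single factor. That of miR-362-3p was −0.0015 and 0.064. With normexp the excess of miR-188-5p over the median fell to 0.94, and without a filter on dim probes it was 1.45. Without the filter the median of all, 0.43, was itself the value that undetected miRNAs take at each array's lowest detected signal. The 1.45 is thus no comparison with measured miRNAs.

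**Figure D4:**
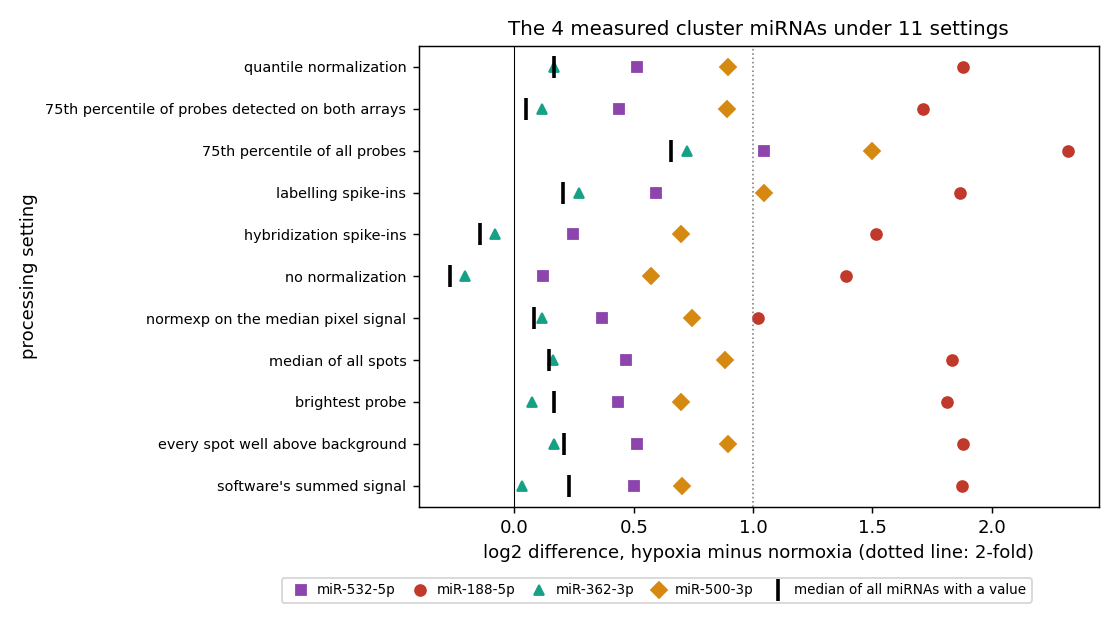
Log2 difference (hypoxia minus normoxia) of the 4 detected members under 11 of the 13 settings, with a black bar for the median of all miRNAs that have a value; the settings left out are the value table, which equals the scanner signal, and no filter on dim probes. The members keep their order under each setting, and miR-188-5p stays right of the dotted 2-fold line (1.02 to 2.32).

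For scale, miR-210-3p, the miRNA best known for its induction by hypoxia, had a normalized log2 difference of 5.30 ± 0.035 (SE over spots). Another X-linked cluster, miR-322/miR-503/miR-351/miR-542/miR-450, had 2 of its 12 listed mature miRNAs detected on both arrays, beside 4 of 8 here. The lists are unlike, since the 12 hold 5p and 3p arms and the 8 leave out the undetected mmu-miR-188-3p and mmu-miR-500-5p. Of all miRNAs on the array, 9.57% were detected on both arrays. The 2 detected in the other cluster were miR-503-5p at 2.54 ± 0.075 and miR-322-5p at 1.07 ± 0.069 (SE over spots). Each was measured on 1 of 2 probes. The miRNAs outside the cluster with a log2 difference nearest to the members' median of 0.70 were miR-423-5p (0.70 ± 0.033), miR-7028-5p (0.71 ± 0.085) and miR-21a-3p (0.69 ± 0.095, SE over spots). That likeness is over a single difference between 2 arrays.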

How the data were processed

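Exosomal RNA of normoxic and hypoxic mouse BMSCs was profiled on 2 arrays, 1 per condition. The authors used Feature Extraction 11.5.1.1, per the file headers, to subtract background and spatial trend and to flag spots. Its processed signal, as deposited, is an intensity on a linear scale with no normalization between arrays, and the value table equals it (largest difference 0). The labels describe reverse transcription from a DNA primer, whereas the study's methods name a miRNA labelling kit. Outlier-flagged spots (4 kinds of flag) made up 2.96% and 3.45% and were left out, the remaining spots of each of 4415 probes were averaged, and probe means were quantile-normalized. A log2 difference is the mean over a miRNA's probes detected on both arrays. SD and SE are over spots inside an array and leave out differences between cultures, isolations and labellings. No p-value was computed. The functions were tested on simulated data. Named were all members, their partner arms, miRNAs sharing a seed, another X-linked cluster, miR-210-3p and the 3 miRNAs nearest to the members' median. Some miRNAs of the mesenchymal and blood-cell lists were named as well. The members and lists were chosen with earlier results of these data known. Alternatives covered scaling, background correction, spot averaging, probe choice, detection and the software's summed signal. Sequences are RefSeq's (GRCm38.p6, 7 of 9 members matched), whereas the array design names mm9. Python 3.11.15 and limma 3.58.1 in R 4.3.3 were used.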

Additional observations from a re-analysis of the deposited data

Results flagged for a closer look

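The scanner software makes its own detection call for each miRNA, which the comparisons above do not use. It called mmu-miR-501-3p detected in hypoxia, with a summed signal of 1.02, and not detected in normoxia, where it wrote its placeholder of 0.1. Its brightest probe, A_54_P2953, gave 8.58 ± 2.54 in normoxia against 10.3 ± 3.54 in hypoxia (SD, n = 7 spots each), with 0 of 7 and 1 of 7 spots well above background. The software's summed signal of its near copy miR-500-3p was 128 in normoxia and 181 in hypoxia, and the part of miR-500-3p in the signal of that probe was not tested.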

How the results depend on the processing

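No paired analysis was possible because neither condition had a second array, and leaving out a replicate does not apply for the same reason. The gaps between members, and the median of all miRNAs, were added after seeing the data. The value table, no filter on dim probes and every spot above background repeat the members' values, and say nothing about their stability. With the 75th percentile of all probes as the scale, the log2 difference was 2.32 for miR-188-5p, 1.50 for miR-500-3p, 1.05 for miR-532-5p and 0.72 for miR-362-3p, with a members' median of 1.27, 3 members at least 2-fold higher, and 58 higher and 10 lower of all miRNAs. No normalization gave 1.39, 0.57, 0.12 and −0.20, a median of 0.35, and 20 higher and 36 lower. The hybridization spike-ins gave 1.52 for miR-188-5p, 0.70 for miR-500-3p and 30 lower, and the labelling spike-ins 2 members higher. Normexp, run on the median pixel signal with an offset of 50, gave 1.02 for miR-188-5p, 0.61 in place of 1.36 for its excess over the mean of the other 3, and 11 higher and 11 lower. The brightest probe gave 0.70 for miR-500-3p. Requiring every spot above background gave 9 lower. Without a filter the members' median was 0.43, the value of undetected members when set to each array's lowest detected signal. The cause of the other moves was not tested. The lowest detected signal limits the 4 dim members.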
